A study of Mus musculus with 6 samples.

Results

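Klf15 loss was examined in cardiac ventricles of 20-week-old mice by comparing 3 libraries labelled 20w KO with 3 libraries labelled 20w WT. The comparison covered every gene whose deposited value averaged at least 10 over the 18 libraries of the series, which was 13032 of 24391 entries. At the edge of that limit, Lpxn averaged 10.002 and was kept, and H2-DMb1 averaged 9.996 and was left out. The series holds 6 groups of 3 libraries, namely 20w KO, 20w WT, 4-week-old KO and WT (4w), and KO and WT of postnatal day 10 (P10). All groups share the C57BL/6 background, the tissue (ventricles, so all cell types of the ventricle together) and free access to food. KO stands for Klf15 loss of function and WT for the intact gene. The sources used here do not give how the allele was made, which cells carry it, or the sex and number of animals behind a library. The p-values therefore measure the spread between libraries, part of which may be technical. In whole tissue, fewer cells of a type and less RNA per cell cannot be told apart.

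KLF15 belongs to the Krüppel-like factors, zinc finger proteins that bind GC-rich and CACCC-type DNA boxes. In heart, liver and skeletal muscle it is known for its role in nutrient flux: it supports the breakdown of branched-chain amino acids and the oxidation of fatty acids, it answers to glucocorticoids and to the circadian clock, and in cardiomyocytes it restrains hypertrophic gene programmes. The series title ties the factor to Wnt signalling and to Shisa3, which encodes a transmembrane modulator of Wnt and FGF receptors. Values below are the authors' normalised counts, given as KO libraries 1, 2 and 3 and then WT libraries 1, 2 and 3. A gene is called when limma's adjusted p (Benjamini-Hochberg over all 13032 genes) is under 0.05, and fold changes are on the log2(value + 1) scale, KO over WT.

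The 20w KO libraries held 17733942, 14982604 and 10676605 reads assigned to genes, and the 20w WT libraries 9610970, 9504538 and 9630244, so every KO library was deeper than any WT library. In a principal component analysis of the 6 libraries, the first component (42% of the variance) separated all KO from all WT libraries, and the second (17.2%) set the first WT library apart. That WT library was high in immediate early genes: Nr4a1 was at 235, 504 and 980.0 in KO and 2008, 359 and 315 in WT. The third KO library was the highest of the 3 KO libraries for 224 of the genes called higher and the lowest for 290 of those called lower, and it carried the highest levels of stress genes given below. The ribosomal entry Rn45s took over 1.5% of the reads in the second KO library (1.70%) and the second WT library (2.72%). All 6 libraries held Ddx3y, a gene of the Y chromosome, at 2834 or more, and Xist, the RNA of the inactive X chromosome, at 9.4 or less.

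Klf15 itself was close to lost in 20w KO hearts. Its values were 43.4, 43.9 and 32.8 in KO and 1032, 942 and 1090.0 in WT, a 25.1-fold lower level (log2 fold change -4.65 ± 0.20 SE, limma adjusted p = 3.7e-12). No KO library came near the WT range, and the labels of all 6 libraries fit their Klf15 level. Shisa3 was at 68.1, 78.4 and 124 in KO and 43.9, 39.5 and 36.1 in WT, 2.17-fold higher in KO (log2 fold change 1.12 ± 0.31 SE, limma adjusted p = 0.033). The groups did not overlap, and the third KO library was the highest. In 5 of the 6 single-library omissions Shisa3 missed the threshold, with an adjusted p of 0.174 without the third KO library, and edgeR gave an adjusted p of 0.058. Within 10 Mb of Klf15 on chromosome 6 (GRCm38 positions), 16 of 127 tested genes were called (12.6%), against 43 of 524 on the rest of that chromosome (8.21%). Among the 16, Hk2, Lmod3, Dysf, Suclg2 and Kbtbd12 appear again below.

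Across all genes, 976 of 13032 were called between 20w KO and 20w WT (7.49%), of which 418 were higher in KO (3.21% of genes tested) and 558 lower (4.28%). These shares are the background for the member counts of each list below. The changes were mostly small: 58 genes were at least 2-fold higher and 140 at least 2-fold lower. The KO and WT libraries did not overlap for 958 of the called genes, against 3086 of all genes tested (23.7%). The median log2 fold change over all genes was 0.0084. When each library was scaled to a common total in place of the authors' size factors, 408 genes were called, of which 128 were higher and 280 lower, so the share of higher calls was 31.4% in place of 42.8%. The median log2 fold change was then 0.003. This scaling covered all 18 libraries with Rn45s included, which took 30.8% of the reads in the second 4w KO library. That library enters the spread per gene, and its part in the lower count was not tested. Leaving out the third KO library gave 218 higher and 363 lower calls, and leaving out the first WT library gave 313 and 415.

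The deepest losses were in small-molecule enzymes of mitochondria, peroxisomes and cytosol. Adhfe1, a mitochondrial enzyme that turns gamma-hydroxybutyrate into succinic semialdehyde, was at 18.7, 14.6 and 18.5 in KO and 1242, 1326 and 1281 in WT, 70.6-fold lower (log2 fold change -6.14 ± 0.21 SE, adjusted p = 1.7e-13). Abat, the transaminase that breaks down GABA, was at 34.0, 39.7 and 35.6 in KO and 659, 602 and 646 in WT (-4.09 ± 0.15 SE, adjusted p = 1.7e-13). The libraries within each group lay close together for both genes, and both act on the route from GABA to succinate. Acot1, a cytosolic acyl-CoA thioesterase, was at 7.66, 3.13 and 2.85 in KO and 128, 88.8 and 116 in WT (-4.42, adjusted p = 9.2e-09). It is a close paralogue of Acot2, and the treatment of reads shared by both is not stated. Pfkfb1, the bifunctional enzyme that sets the level of fructose 2,6-bisphosphate, was at 28.1, 14.6 and 14.2 in KO and 368, 229 and 295 in WT (-3.94, adjusted p = 3e-08). Fbp2, the muscle fructose-1,6-bisphosphatase, was at 61.3, 67.9 and 49.9 in KO and 520.0, 477 and 422 in WT (-2.97). Neither gene showed any overlap between the groups, which is part of how the genes with the lowest fold changes were chosen.

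Of the other genes with the lowest fold changes, 3 belong to detoxification or amino acid breakdown. Gstm2, a cytosolic glutathione transferase, was at 28.9, 21.9 and 12.8 in KO and 305, 288 and 314 in WT (-3.84 ± 0.25 SE, limma adjusted p = 3.2e-09). Gstk1, the mitochondrial and peroxisomal kappa class transferase, was at 89.4, 115 and 99.7 in KO and 821, 924 and 789 in WT (-3.05). Fah, the last enzyme of tyrosine breakdown, was at 21.3, 15.7 and 18.5 in KO and 246, 219 and 196 in WT (-3.51). All KO libraries were below all WT libraries for each of them, which is part of how they were chosen. Abhd1, a hydrolase family member, was at 11.9, 16.7 and 7.12 in KO and 177, 158 and 367 in WT (-4.15), with the third WT library the highest. Cyfip2, a subunit of the WAVE complex that controls actin assembly, was at 774, 623 and 685 in KO and 5259.6, 3408 and 3624 in WT (-2.54, adjusted p = 0.00012). Bdnf, a neurotrophin, was at 44.3, 30.3 and 41.3 in KO and 285, 248 and 162 in WT (-2.53, adjusted p = 3.7e-06). Every gene of this group was still called when any 1 of the 6 libraries was left out.

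At the other end stood genes of cardiac wall stress. Nppb, which encodes the natriuretic peptide BNP, was at 2592, 2897 and 4816 in KO and 631, 566 and 513 in WT, 5.81-fold higher (log2 fold change 2.54 ± 0.33 SE, limma adjusted p = 4.4e-05). Myh7, the slow beta myosin heavy chain that the fetal mouse ventricle uses, was at 13667, 18050.4 and 20456 in KO and 3325, 2875 and 2782 in WT (2.52 ± 0.68 SE, adjusted p = 0.027). Acta1, skeletal alpha-actin, was at 6698, 4085 and 21361 in KO and 1994, 2627 and 1554 in WT (2.05 ± 0.54 SE, adjusted p = 0.023). The groups did not overlap for any of the 3 genes, which is part of how they were chosen. The third KO library was the highest in each, for Acta1 by far. Nppb was still called when any 1 of the 6 libraries was left out. The Acta1 call was lost with the first WT, the third WT or the third KO library left out (highest adjusted p = 0.15, for the third KO library). The Myh7 call was lost for every single library left out except the first KO library (highest adjusted p = 0.094). The SE is estimated over all 18 libraries, so that of Myh7 takes in the spread at other ages.

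Tnfrsf12a, the receptor of the cytokine TWEAK, was at 355, 565 and 963 in KO and 159.8, 107 and 183 in WT (1.97 ± 0.29 SE, limma adjusted p = 0.00019). Ankrd1, a titin-associated stretch-responsive protein of the sarcomere and nucleus, was at 40787, 40230.4 and 76274 in KO and 17134, 16933 and 15209.6 in WT (1.61, adjusted p = 0.00041). Nmrk2, a muscle kinase that acts on nicotinamide riboside on the route to NAD, was at 83.4, 98.2 and 179 in KO and 40.7, 39.5 and 25.1 in WT (1.70, adjusted p = 0.009). In all 3 the third KO library was the highest, and only the Nmrk2 call was lost without that library (adjusted p = 0.064). Groups that do not overlap were part of how these 3 genes were chosen. The high genes Ptgds, Pygl, Gnb3 and Ten1 showed little spread among KO libraries. Ptgds, prostaglandin D synthase, was at 3082, 2729 and 2394 in KO and 729.9, 785 and 827 in WT (1.80). Pygl, the liver form of glycogen phosphorylase, was at 309, 289 and 311 in KO and 97.1, 85.5 and 87.8 in WT (1.74, adjusted p = 2.3e-07). Gnb3, a G protein beta subunit, was at 174, 182 and 177 in KO and 72.0, 57.6 and 54.9 in WT (1.52). Ten1, part of the telomeric CST complex, was at 174, 191 and 171 in KO and 47.0, 79.0 and 53.3 in WT (1.60). The strand setting of the counting is not given, so reads of Ten1 and of any gene on the opposite strand cannot be told apart. Slc24a2, a potassium-dependent sodium-calcium exchanger, was 3.5-fold higher, and Cpxm2, a secreted carboxypeptidase-like protein, 3.21-fold. Both leaned on the third KO library. Without it the log2 fold change of Slc24a2 was 1.48 in place of 1.81, and that of Cpxm2 1.51 in place of 1.68. Rprl3, an RNA gene with near-identical copies, had a larger estimate (6.73), but how reads were divided among the copies is uncertain.

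**Figure D1:**
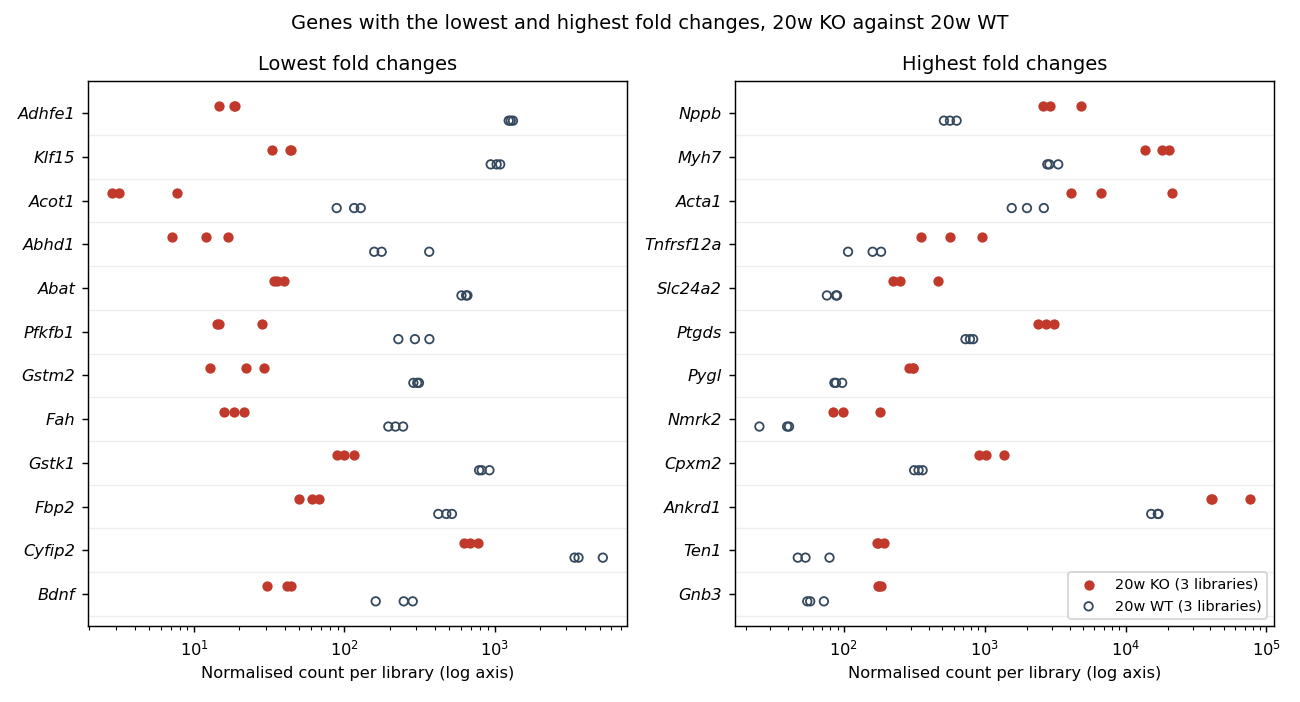
Normalised counts (log axis) of the 12 called genes with the lowest and the 12 with the highest fold changes at 20w, with 3 KO libraries (filled, upper row of each gene) and 3 WT libraries (open, lower row). The groups do not overlap for any of the 24 genes, which is part of how they were chosen, and Adhfe1 shows the widest gap.

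The promoters of the 4 lowest of these genes with a sequence in the RefSeq table and of the 2 highest are shown because these genes move most and the factor lost is a DNA-binding protein. They are RefSeq windows of build GRCm38.p6, from 250 bases before to 50 after 1 annotated start, on the gene's strand. Only the first listed start of each gene was used. Pfkfb1 has 4 listed starts and Myh7 has 2, and windows at their other starts were not searched. The deposited counts were made on mm9, so these coordinates are not the authors'. Capitals mark each CCNCNCCC box, a GC-rich or CACCC-type box, on either strand.
Klf15, chr6:90462326-90462625, plus strand: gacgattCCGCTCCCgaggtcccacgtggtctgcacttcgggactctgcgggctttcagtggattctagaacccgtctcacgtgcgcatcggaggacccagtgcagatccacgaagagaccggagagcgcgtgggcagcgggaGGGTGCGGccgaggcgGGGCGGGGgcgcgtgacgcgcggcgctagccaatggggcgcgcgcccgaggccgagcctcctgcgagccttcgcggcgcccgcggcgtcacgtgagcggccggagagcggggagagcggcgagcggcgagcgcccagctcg
Acot1, chr12:84009252-84009551, plus strand: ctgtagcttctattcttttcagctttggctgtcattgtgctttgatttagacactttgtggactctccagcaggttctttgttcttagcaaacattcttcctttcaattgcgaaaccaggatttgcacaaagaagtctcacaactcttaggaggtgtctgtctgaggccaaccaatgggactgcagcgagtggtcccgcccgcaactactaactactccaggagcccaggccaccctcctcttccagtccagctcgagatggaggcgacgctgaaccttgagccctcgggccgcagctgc
Pfkfb1, chrX:150587195-150587494, plus strand: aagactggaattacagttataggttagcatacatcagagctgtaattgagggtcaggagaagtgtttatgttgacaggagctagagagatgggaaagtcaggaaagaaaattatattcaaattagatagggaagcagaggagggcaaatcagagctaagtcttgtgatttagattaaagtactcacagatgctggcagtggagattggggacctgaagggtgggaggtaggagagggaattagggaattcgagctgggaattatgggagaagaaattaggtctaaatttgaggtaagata
Gstm2, chr3:107986371-107986670, minus strand: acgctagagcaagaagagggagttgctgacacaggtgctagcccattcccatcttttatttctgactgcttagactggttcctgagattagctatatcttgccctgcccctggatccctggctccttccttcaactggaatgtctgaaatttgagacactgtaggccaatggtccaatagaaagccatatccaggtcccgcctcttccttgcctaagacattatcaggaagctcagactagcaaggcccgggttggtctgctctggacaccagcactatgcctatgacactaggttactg
Nppb, chr4:147985650-147985949, plus strand: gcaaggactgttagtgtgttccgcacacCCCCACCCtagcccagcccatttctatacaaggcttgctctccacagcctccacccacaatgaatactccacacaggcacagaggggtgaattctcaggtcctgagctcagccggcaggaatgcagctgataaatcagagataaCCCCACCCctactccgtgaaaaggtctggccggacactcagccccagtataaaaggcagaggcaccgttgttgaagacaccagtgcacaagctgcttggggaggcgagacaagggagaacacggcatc
Myh7, chr14:54994577-54994876, minus strand: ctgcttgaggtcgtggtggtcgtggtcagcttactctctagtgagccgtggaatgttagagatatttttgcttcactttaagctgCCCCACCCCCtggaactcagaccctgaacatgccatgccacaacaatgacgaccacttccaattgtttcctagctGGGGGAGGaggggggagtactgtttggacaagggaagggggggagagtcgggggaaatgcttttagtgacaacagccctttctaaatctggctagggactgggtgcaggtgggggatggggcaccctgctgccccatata
The window of Klf15 holds 3 such boxes, that of Nppb 2 and that of Myh7 3 (of these, a pair overlaps), and those of Acot1, Pfkfb1 and Gstm2 hold none. Among genes with a window, 338 of 437 called lower (77.3%), 252 of 331 called higher (76.1%) and 7143 of all 10335 tested (69.1%) held at least 1 CCNCNCCC box. The narrower CACCC box CCACACCC, which every search for CCNCNCCC also finds, was in 4.6% of windows of lower genes, 4.2% of higher genes and 3.6% of all. The unrelated E-box CACGTG was in 10.5%, 9.1% and 10.2%. A match describes letters in a window and is not evidence of binding, and no test was made of these shares.

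By level, the most abundant genes called lower were mostly of fat use, with Lpl, Cd36 and Hadha given below. Acsl1, which activates long-chain fatty acids, was at 18376, 16709 and 16246 in KO and 21435, 21939.7 and 21016 in WT (-0.33, limma adjusted p = 0.014), and Acadl, the long-chain acyl-CoA dehydrogenase, at 11658, 11674 and 10946 in KO and 14881, 15813 and 15688 in WT (-0.44). Zfp106, an RNA-binding zinc finger protein, had a log2 fold change of -0.44 and Hrc, a calcium-binding protein of the sarcoplasmic reticulum, -0.37. Among the most abundant genes called higher, besides Ankrd1, Mybpc3, Xirp2 and Slc8a1, were Ckm, the muscle creatine kinase, at 28655, 38898 and 31961 in KO and 25628, 23298 and 22932 in WT (0.46, adjusted p = 0.028), and Myom2, an M-band protein, at 31856, 38261 and 37038 in KO and 24697, 26504 and 27154 in WT (0.45). Ivns1abp, an actin-associated kelch protein, had 0.33 and Hspb7, a small heat shock protein, 0.46. The calls of Ckm, Hspb7, Hrc and Ivns1abp were each lost in 4 of the 6 single-library omissions, that of Myom2 in 5 and that of Acsl1 in 2, with the highest adjusted p at 0.14 for Ckm, 0.11 for Hspb7, 0.2 for Hrc, 0.1 for Ivns1abp, 0.098 for Myom2 and 0.071 for Acsl1.

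Branched-chain amino acid catabolism was lower at most steps from the transaminase to propionyl-CoA. Of 24 tested members, 16 fell and none rose, with a median log2 fold change of -0.70. Klf15 itself is counted among the 24 and among the 16, and its fall is given by the genotype. Bcat2, the mitochondrial transaminase that takes the amino group off leucine, isoleucine and valine, was at 341, 368 and 316 in KO and 987, 956 and 847 in WT (-1.44 ± 0.10 SE, limma adjusted p = 6e-09). Bckdhb, a catalytic subunit of the branched-chain ketoacid dehydrogenase that commits the carbon skeletons to breakdown, was at 263, 243 and 212 in KO and 774, 803 and 827 in WT (-1.74). Dbt, the core of the same complex, was at 887, 759.7 and 707 in KO and 2072, 2105 and 2001 in WT (-1.40). In each, the highest KO library was well below the lowest WT library. Aldh6a1, the dehydrogenase of the valine branch, was at 2179.6, 2012 and 1889 in KO and 6998, 7168 and 7658 in WT (-1.84 ± 0.093 SE, adjusted p = 4e-11). Members that were not called include Bckdk, the kinase that inhibits the dehydrogenase complex, at 1054, 1375 and 1054 in KO and 1115, 1056 and 1153 in WT, and Dld, the dihydrolipoyl dehydrogenase that this complex shares with others, at 10976, 8857 and 9390.1 in KO and 9081, 9500.3 and 9426 in WT. Of the 16 calls, 14, Klf15 among them, held under every single-library omission and every other setting tried.

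Other amino acid breakdown followed, with 13 of 25 tested members lower, none higher and a median of -0.44. Besides Adhfe1 and Abat, Prodh, the first enzyme of proline oxidation, was at 74.9, 94.0 and 72.6 in KO and 296, 308 and 295 in WT (-1.89, limma adjusted p = 1e-07). Oat, ornithine aminotransferase, was at 2176, 1972 and 1904 in KO and 3674, 3610.3 and 3609 in WT (-0.85). Cth, which makes cysteine from cystathionine, had no read in any KO library and 64.2, 46.1 and 29.8 in WT (adjusted p = 1.7e-07). With a floor of 3 reads over the KO group, Cth was at least 44.1-fold lower in KO. Members outside the calls include the aspartate aminotransferases Got1 (log2 fold change 0.087) and Got2 (0.029) and the succinic semialdehyde dehydrogenase Aldh5a1 (0.0067), which acts just after Abat.

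Fatty acid uptake and mitochondrial beta-oxidation had 25 of 39 tested members lower and none higher, with a median of -0.40. They are spread over the whole route, and the lowest of them was Ucp3, a mitochondrial carrier of striated muscle, at 351, 197 and 148 in KO and 995, 857 and 529 in WT (-1.81). For uptake, Cd36, the main fatty acid translocase, was at 38123, 30192 and 31515 in KO and 40292, 41891 and 41703 in WT (-0.32, limma adjusted p = 0.04). For entry into mitochondria, Cpt1a was at 851, 796 and 732 in KO and 1428, 1393 and 1203 in WT (-0.76), and Slc25a20, the carnitine-acylcarnitine carrier, at 1858, 1832 and 1533 in KO and 3283, 3329 and 3039 in WT (-0.89). The groups were apart in all 3, least so for Cd36, whose call was lost in 5 of the 6 single-library omissions (highest adjusted p = 0.16, without the second KO library). Within the cycle, Echs1, the short-chain hydratase, was at 2891, 2795 and 2655 in KO and 5025, 5053 and 5390.3 in WT (-0.89 ± 0.085 SE, adjusted p = 6.1e-07). Acaa2, the thiolase of the last step, was at 6868, 7375 and 5621 in KO and 14227, 13469 and 13263 in WT (-1.05). Hadha, the alpha subunit of the trifunctional protein, was at 17278, 17485 and 15249 in KO and 24459, 23667 and 23621 in WT (-0.52). The medium-chain dehydrogenase Acadm was not called, at 15679, 16397 and 13746 in KO and 18183, 17877 and 17975 in WT (adjusted p = 0.085), nor was the muscle carnitine transferase Cpt1b (-0.25). The list had 18 lower members without the third KO library and 15 at a common total (reads summed over all genes, Rn45s included).

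Thioesterases, which release free fatty acids from CoA, had 6 lower and 1 higher of 11 tested members. Besides Acot1, Acot2 was at 718, 583 and 569.8 in KO and 1331, 1354 and 1498 in WT (-1.17, limma adjusted p = 1.2e-06) and Acot11 at 289, 319.8 and 245 in KO and 679.8, 715 and 731 in WT (-1.32). With the third KO library left out, 4 thioesterases were lower and none higher. In peroxisomes 7 of 39 members were lower and none higher, and the list's median of -0.03 was near that of all genes. The lower ones include Pxmp2, a membrane channel, at 289, 319.8 and 298 in KO and 872, 899.7 and 949 in WT (-1.58 ± 0.14 SE, adjusted p = 2.2e-07), and Ech1, a dienoyl-CoA isomerase, at 8738, 10951 and 7402 in KO and 16722, 16017 and 15802 in WT (-0.86). Neither gene showed overlap between KO and WT libraries. In ketone body metabolism 4 of 9 members were lower and 1 higher. Bdh1, which oxidises beta-hydroxybutyrate, was at 894, 628 and 1151 in KO and 2082, 1836 and 1866 in WT (-1.15, adjusted p = 0.019), and its call was lost in 4 of the 6 single-library omissions (highest adjusted p = 0.098, without the second KO library). The ketone list had 3 lower members without the third KO library and 2 without the first WT library.

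In oxidative phosphorylation 1 of 38 tested members was lower and none higher (2.63% called, against 7.49% of all genes tested), with a median of 0.10. That gene, the muscle subunit Cox6a2 of cytochrome c oxidase, was at 6428, 7597 and 6221 in KO and 11572, 10505 and 11003 in WT (-0.71 ± 0.10 SE, limma adjusted p = 0.00017), with no overlap. The ATP synthase subunit Atp5b was at 77529, 86463 and 76853 in KO and 82318, 79522 and 78286 in WT, where the groups overlap, and the complex I subunit Ndufs1 had a log2 fold change of -0.10. In the tricarboxylic acid cycle and its feeder reactions 4 of 27 members were lower and 1 higher (18.5%), with a median of -0.015. Pcx, pyruvate carboxylase, was at 261, 363 and 264 in KO and 797, 623 and 651 in WT (-1.23, adjusted p = 0.00035). Suclg2, the GTP-forming subunit of succinyl-CoA synthetase, fell by 0.42 on the log2 scale, and Pdhx, a subunit of pyruvate dehydrogenase, rose by 0.28. Among 28 regulators of mitochondrial and lipid genes, 1 was lower and 1 higher (7.14% called, near the 7.49% of all genes tested). Ppara, the nuclear receptor for fatty acids, was lower, at 2456, 2862 and 2509.9 in KO and 3491, 3403 and 4053 in WT (-0.48, adjusted p = 0.0084). Lpin1, a phosphatidate phosphatase and coactivator, was higher, at 6521, 6386 and 5816 in KO and 5202, 5066 and 4808 in WT (0.31, adjusted p = 0.044). The Lpin1 call was lost whichever library was left out, and that of Ppara without the third WT library (adjusted p = 0.06). The coactivator Ppargc1a was not called, at 3400.0, 3329 and 2999.9 in KO and 3502, 3887 and 4013 in WT.

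Triglyceride handling had 9 lower and 1 higher of 30 tested members (33.3% called, against 7.49% of all genes tested), with a median of -0.21. Lpl, the lipase that frees fatty acids from blood lipoproteins, was among the most abundant lower genes, at 87019.7, 64071 and 75258 in KO and 142956, 132604 and 144422 in WT (-0.90 ± 0.15 SE, limma adjusted p = 0.00049). Its circulating inhibitor Angptl4 was lower too, at 20.4, 8.36 and 9.97 in KO and 47.0, 67.4 and 26.7 in WT (-1.79, adjusted p = 0.0015). Gpam, the first enzyme of glycerolipid synthesis, was at 4188, 3919.6 and 4174 in KO and 6304, 6143 and 6496 in WT (-0.63), and Dgat2, the last, at 4620.4, 5673 and 4491 in KO and 7394, 6969 and 6755 in WT (-0.52). The breakdown enzyme Lipe, hormone-sensitive lipase, was lower too (-0.44). The list had 6 lower members without the third KO library and 5 without the first WT library.

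Glucose genes changed in both directions. In glucose uptake and glycolysis 3 of 28 tested members were higher and 4 lower (25% called, against 7.49% of all genes tested). Against the losses of Pfkfb1 and Fbp2, the heart isoform Pfkfb2 was higher, at 4363, 3832 and 3947 in KO and 2577, 2847 and 2739.9 in WT (0.57 ± 0.089 SE, limma adjusted p = 0.00031). Hk2, the insulin-responsive hexokinase, was at 7176, 7879 and 7890.2 in KO and 10562, 10224 and 9349 in WT (-0.39, adjusted p = 0.0051). The glucose transporter Slc2a4 was not called (-0.27, adjusted p = 0.067). In glycogen metabolism 3 of 22 members were higher and 3 lower (27.3% called). Besides Pygl, Ppp1r3c, a phosphatase subunit that activates glycogen synthase, was higher, at 3774, 4377 and 5191 in KO and 2707, 2813 and 2622 in WT (0.70, adjusted p = 0.00019). The striated muscle subunit Ppp1r3a was lower, at 11924, 10859 and 10729 in KO and 13395, 15394 and 18034 in WT (-0.47, adjusted p = 0.044), and Stbd1, a glycogen-binding protein, was at 88.5, 100.3 and 24.2 in KO and 133, 181 and 223 in WT (-1.53). For Stbd1 the third KO library was far below the other KO libraries, and its call was lost without the third WT library (adjusted p = 0.051). The Ppp1r3a call was lost in 4 of the 6 single-library omissions (highest adjusted p = 0.21, without the third WT library).

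Among detoxifying enzymes, Aldh2, the mitochondrial aldehyde dehydrogenase, was at 717, 919 and 870.4 in KO and 2746, 2642 and 2619 in WT (-1.68 ± 0.094 SE, limma adjusted p = 2.2e-10). In its list 7 of 37 members were lower and 2 higher (24.3% called, against 7.49% of all genes tested). Aldh1a2, which makes retinoic acid, was one of those higher, at 63.8, 66.9 and 115 in KO and 45.4, 26.3 and 40.8 in WT (1.09). In the glutathione and antioxidant list 5 of 38 members were lower and 3 higher (21.1% called). Gstm7, a relative of Gstm2, was at 79.1, 67.9 and 75.5 in KO and 354, 304 and 289 in WT (-2.07, adjusted p = 4.2e-08), and Txnrd1, the cytosolic thioredoxin reductase, was higher at 1335, 1272 and 1456 in KO and 1026, 980.3 and 1059 in WT (0.40). Srxn1, which repairs peroxiredoxins, was higher as well (0.61). All 5 lower members were glutathione transferases, while another, Gsto1, was higher (0.44).

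**Figure D2:**
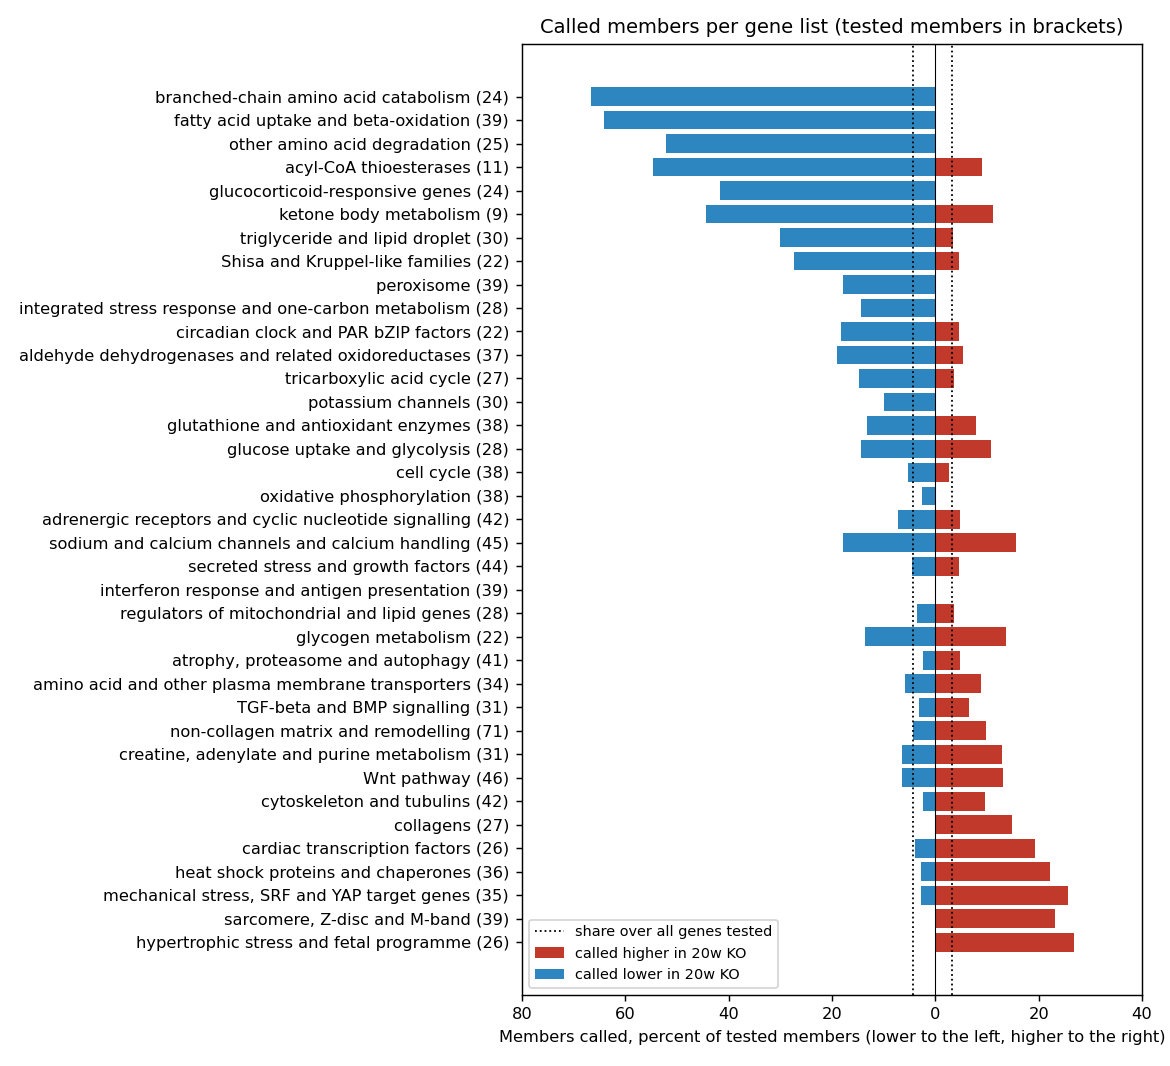
Share of tested members called lower (left, blue) and higher (right, red) in 20w KO for 37 pathway lists, with the number of tested members in brackets. Dotted lines give the share over all genes tested (4.28% lower and 3.21% higher), and lists run from mostly lower, led by branched-chain amino acid catabolism, to mostly higher, led by hypertrophic stress.

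The hypertrophic stress and fetal programme list had 7 of 26 tested members higher and none lower, with a median of 0.20. The called members were Nppb, Ankrd1, Myh7, Acta1, Xirp2, Rcan1 and Fhl1. Rcan1, an inhibitor of calcineurin that calcineurin itself induces, was at 1296, 1441 and 2295 in KO and 988, 862 and 751 in WT (0.91 ± 0.17 SE, limma adjusted p = 0.0021). Xirp2, an actin-binding protein of the intercalated disc, was at 57047, 59500.3 and 111072 in KO and 41505, 44989.7 and 44277 in WT (0.73, adjusted p = 0.019). Nppa, the atrial natriuretic peptide, was not called, at 2623, 2648 and 9024 in KO and 2005, 2716 and 1969.8 in WT (adjusted p = 0.4), and only the third KO library stood above the WT range. The adult alpha myosin Myh6 was at 414069.5, 470709 and 417656 in KO and 456951, 465472 and 445022 in WT and the calcium pump Atp2a2 at 269365, 259724 and 244348 in KO and 308476, 309071 and 305336 in WT, and neither was called. Leaving out the third KO library, or the first WT library, left 3 called members. The Xirp2 call was lost in 4 of the 6 single-library omissions (highest adjusted p = 0.1, without the third KO library).

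Mechanical stress and targets of SRF and YAP were mostly on the higher side, with 9 of 35 tested members higher, 1 lower and a median of 0.24. Ankrd23, a relative of Ankrd1 on titin, was at 4561, 5139 and 6249 in KO and 2769, 2225 and 1946 in WT (1.20 ± 0.20 SE, limma adjusted p = 0.00073). Srf, the serum response factor, was at 1075, 1555 and 1423 in KO and 871, 826 and 947 in WT (0.60), and Flnc, the muscle filamin, at 11148, 17497 and 30398 in KO and 10064, 10198 and 10120.4 in WT (0.84). The KO libraries were above all WT libraries in each, and for Flnc the third KO library was the highest by a wide step. Amotl2, a YAP-binding angiomotin, was lower, at 988, 1165 and 1132 in KO and 1607, 1370.1 and 1512 in WT (-0.45). The immediate early gene Egr1 was at 328, 1063 and 1486 in KO and 1751, 308 and 428 in WT (adjusted p = 0.72) and was not called, with its highest value in the first WT library. Of the list, 5 members were higher and 1 lower without the third KO library.

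**Figure D3:**
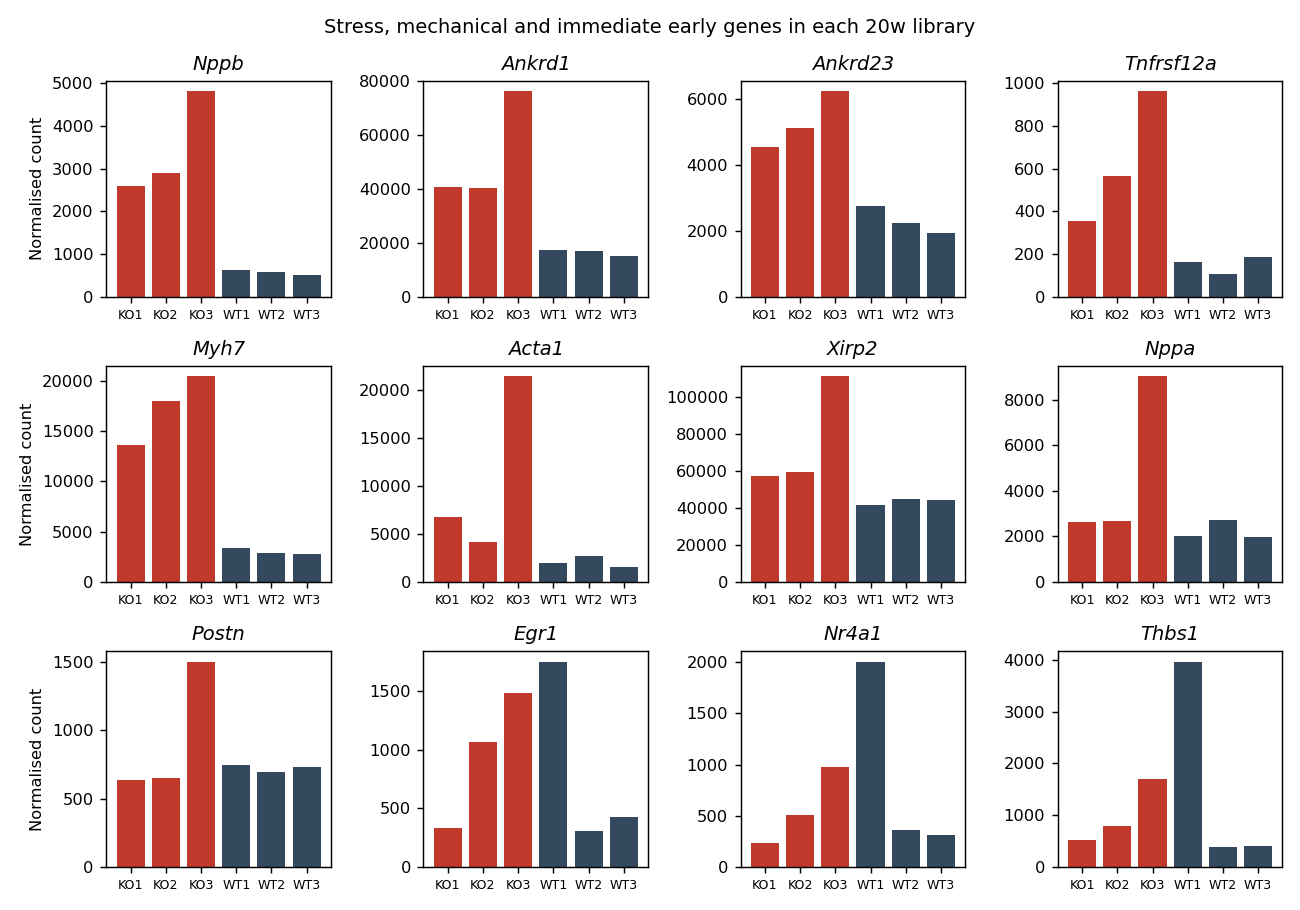
Normalised counts of 12 stress, mechanical and immediate early genes in each 20w library (KO in red on the left, WT in dark blue on the right, linear axes from 0). Nppb, Ankrd1, Ankrd23, Tnfrsf12a, Myh7, Acta1 and Xirp2 are above all WT libraries in every KO library, Nppa and Postn only in the third, and Egr1, Nr4a1 and Thbs1 are highest in the first WT library.

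Sarcomere, Z-disc and M-band genes had 9 of 39 tested members higher and none lower, with a median of 0.12. Mybpc3, myosin-binding protein C, was at 77849.5, 103196 and 91598 in KO and 62857, 64915 and 59462 in WT (0.53 ± 0.11 SE, limma adjusted p = 0.004). Myot, a Z-disc protein, was at 2229.8, 2091 and 2987 in KO and 1173, 1102 and 1429 in WT (0.97), and Nrap, which serves myofibril assembly, at 17645, 21691 and 29328 in KO and 15005, 15025 and 15760.1 in WT (0.55). Lmod3, which nucleates thin filaments, was at 2626, 2458 and 2467 in KO and 1966, 1980.3 and 1769 in WT (0.40, adjusted p = 0.00079). Apart from Myot, which had the highest log2 fold change of the list, these are small changes. The groups did not overlap in these genes. The backbone genes Ttn (0.022), Tnnt2 (0.024) and Myl2 (0.078) were not called. At a common total 3 members were called, and without the third KO library 5 were higher and 1 lower. In the cytoskeleton list 4 of 42 members were higher and 1 lower (11.9% called, against 7.49% of all genes tested). Among those higher was Dysf, the membrane repair protein dysferlin, at 2133, 2177 and 2320.5 in KO and 1298, 1568 and 1667 in WT (0.56, adjusted p = 8e-05).

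Heat shock proteins had 8 of 36 tested members higher and 1 lower, with a median of 0.15. The small heat shock proteins led. Hspb1 was at 429, 647 and 1102 in KO and 330.5, 283 and 347 in WT (1.08 ± 0.21 SE, limma adjusted p = 0.0023), Hspb8 at 9712, 9851 and 11044 in KO and 7581, 6887 and 6477 in WT (0.55), and Cryab, the alpha-B crystallin that protects desmin, at 18925, 17957 and 22548 in KO and 14526, 14387 and 14934 in WT (0.43). The lower one was the mitochondrial chaperonin Hspd1, which fell by 0.31 on the log2 scale. The inducible Hspa1a (-0.035) and Hspa1b (-0.10) were not called. Without the third KO library 4 members were higher and none lower. Protein turnover had 2 of 41 members higher and 1 lower (7.32% called, near the 7.49% of all genes tested). Fbxo40, a muscle ubiquitin ligase subunit, was at 3878, 4224 and 4582 in KO and 3015, 2961 and 2988 in WT (0.50, adjusted p = 0.00021). Ubb, a polyubiquitin gene, was at 709, 558 and 412 in KO and 1187, 1155 and 1107 in WT (-1.07).

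Of 27 collagens, 4 were higher and none lower (14.8% called), with a median of 0.26, and each of the 4 calls was lost in at least 1 single-library omission: 1 collagen was called without the third KO library and none without the first WT library. Col5a3 was at 181, 122 and 132 in KO and 64.2, 95.4 and 87.8 in WT (0.81, limma adjusted p = 0.013). The fibrillar collagen Col1a1 was not called, at 602, 635 and 1053 in KO and 586, 589 and 572 in WT, where only the third KO library stood far above the rest. In the non-collagen matrix list 7 of 71 members were higher and 3 lower (14.1% called), and without the third KO library none was higher and 4 lower. Fbn1, the microfibril protein fibrillin, was at 2023, 1571 and 2490.0 in KO and 1217, 1263 and 1187 in WT (0.70). Timp3, the matrix-bound metalloproteinase inhibitor, was at 4818, 4794 and 5234 in KO and 7246, 7133 and 7529.5 in WT (-0.56 ± 0.085 SE, adjusted p = 0.00023). Of the TGF-beta and BMP list, 2 of 31 members were higher and 1 lower (9.68% called, against 7.49% of all genes tested). Pmepa1, a feedback inhibitor, was at 445, 501 and 618 in KO and 326, 383 and 395 in WT (0.49). None of this list was higher without the third KO library. The secreted stress factor list had 2 of 44 members higher, Nmrk2 and Fgf18, and 2 lower, Bdnf and Fgf2. That is 9.09% called, against 7.49% of all genes tested. Nmrk2 stands in this list although it is a kinase and not a secreted factor. Fgf18 was at 61.3, 63.7 and 78.3 in KO and 31.3, 32.9 and 29.8 in WT (1.08).

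Electrical and calcium-handling genes changed in both directions. In the sodium and calcium list 7 of 45 tested members were higher and 8 lower (33.3% called). Scn4a, the skeletal muscle sodium channel, was at 416, 408 and 289 in KO and 1350.2, 1082 and 955 in WT (-1.61 ± 0.17 SE, limma adjusted p = 3.8e-06). Scn4b, a sodium channel beta subunit, was at 626, 350.1 and 456 in KO and 1673, 1299 and 1816 in WT (-1.77). Cacna1h, a T-type calcium channel, was at 92.8, 165 and 154 in KO and 216, 266 and 289 in WT (-0.93). All 3 had KO libraries below all WT libraries. Higher members were Hcn2, a pacemaker channel, at 381, 409 and 380.3 in KO and 272.54, 250.01 and 199.18 in WT (0.71), and the sodium-calcium exchanger Slc8a1, at 25784, 28296 and 30123 in KO and 20271, 23446 and 22552 in WT (0.35). Without the third KO library 3 members were higher and 6 lower, and without the first WT library the counts were the same. The calcium release channel Ryr2 (0.0053) was not called. Of 30 potassium channel genes, 3 were lower and none higher (10% called, against 7.49% of all genes tested). Kcnip2, the subunit that sets the transient outward current, was at 1946, 2039.7 and 1939 in KO and 2484, 2393 and 2572 in WT (-0.33, adjusted p = 0.031), and Kcna5, an ultrarapid potassium channel, at 283, 262 and 274 in KO and 349, 357 and 391 in WT (-0.42). The Kcnip2 call was lost in 5 of the 6 single-library omissions (highest adjusted p = 0.11, without the third WT library), that of Kcna5 without the third WT library (adjusted p = 0.074) and that of Scn4b in 2 of the 6 single-library omissions (highest adjusted p = 0.057, without the third WT library). The Slc8a1 call was lost with the first WT or the third KO library left out (highest adjusted p = 0.088). At a common total Slc8a1, Kcnip2 and Kcna5 were not called (adjusted p = 0.29, 0.293 and 0.265). The log2 fold change of Slc8a1 was 0.34 there.

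In the Wnt pathway list 6 of 46 tested members were higher and 3 lower (19.6% called, against 7.49% of all genes tested), with a median of 0.11. The higher ones were Shisa3, the ligand Wnt5b, the receptor Fzd1, the DKK receptor Kremen1, the inhibitor Dact1 and the target gene Cd44. Wnt5b was at 44.3, 59.6 and 55.6 in KO and 32.9, 28.0 and 14.1 in WT (1.13, limma adjusted p = 0.041). The lower ones were the receptor Fzd4 and the secreted modulators Dkk3 and Sfrp5. Dkk3 was at 219.6, 269 and 246 in KO and 329, 362 and 375 in WT (-0.54, adjusted p = 0.0067). The common target gene Axin2 was not called, at 88.5, 117 and 108 in KO and 68.9, 93.8 and 97.2 in WT (adjusted p = 0.37), nor was Ctnnb1 (0.07). Of the 9 calls, that of Dkk3 alone held in all 6 single-library omissions. Without the third KO library 1 member was higher and 2 lower, and without the first WT library 2 were higher and 1 lower. At a common total 2 were higher and none lower.

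Other Krüppel-like factors were mostly on the lower side. In the Shisa and Krüppel-like list 6 of 22 tested members were lower, Klf15 among them, and 1, Shisa3, was higher. Klf12 was at 441, 411 and 360.4 in KO and 628, 638 and 734 in WT (-0.72 ± 0.13 SE, limma adjusted p = 0.0014), Sp4 at 563, 482 and 427 in KO and 728, 768 and 805 in WT (-0.65), Klf9 at 2779, 2215 and 2149.5 in KO and 3184, 3161 and 3176 in WT (-0.42) and Klf10 at 203, 179 and 215 in KO and 319.5, 288 and 296 in WT (-0.60). For Klf9 the first KO library came closest to the WT range. Among 26 cardiac transcription factors, 5 were higher and 1 lower (23.1% called, against 7.49% of all genes tested). Gata4 was at 1746, 2220.5 and 1981 in KO and 1601, 1479 and 1363 in WT (0.42), Irx4 at 535, 700.1 and 671 in KO and 367, 429 and 470.5 in WT (0.59) and Hey2, a Notch target of the compact ventricle, at 64.7, 51.2 and 67.0 in KO and 92.4, 109 and 125 in WT (-0.82).

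Of 24 glucocorticoid-responsive genes, 10 were lower and none higher, with a median of -0.43. Pdk4, the kinase that shuts pyruvate dehydrogenase, was at 4179, 2181 and 3581 in KO and 9017, 7421 and 7824 in WT (-1.33 ± 0.21 SE, limma adjusted p = 0.0004). Arrdc2, an arrestin family member, was at 78.3, 84.6 and 89.7 in KO and 188, 237 and 287 in WT (-1.46), and Tsc22d3, the leucine zipper protein GILZ, at 1642, 2041 and 2362 in KO and 2815, 2716 and 3019 in WT (-0.51). The groups did not overlap in these genes, but Fkbp5 (-0.56) and Per1 (-0.67) were not called. Klf9, Pdk4 and Angptl4 stand in other lists too. Without the third KO library, and likewise without the first WT library, 7 members were lower, and 3 without the libraries over 1.5% Rn45s. The Tsc22d3 call was lost in 2 of the 6 single-library omissions (highest adjusted p = 0.074, without the third WT library). Of 22 clock genes, 4 were lower and 1 higher (22.7% called, against 7.49% of all genes tested). Per3 was at 689, 705 and 769 in KO and 1037, 1018 and 1035 in WT (-0.52), Per2 at 371, 475 and 543 in KO and 681, 743 and 751 in WT (-0.66) and Hlf at 949, 862 and 838 in KO and 1419, 1442 and 1329.9 in WT (-0.66). Arntl, which encodes BMAL1, was higher, at 59.6, 28.2 and 35.6 in KO and 18.8, 11.5 and 20.4 in WT (1.20, adjusted p = 0.013). The Arntl call was lost in 2 of the 6 single-library omissions (highest adjusted p = 0.078, without the second WT library). The hour of tissue collection is not given.

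Of the adrenergic and cyclic nucleotide list, 2 of 42 tested members were higher and 3 lower (11.9% called, against 7.49% of all genes tested). Adrb1, the main beta-adrenergic receptor of the heart, was at 323, 333 and 358 in KO and 284, 265 and 229 in WT (0.39, limma adjusted p = 0.033), with the call lost in 4 of the 6 single-library omissions (highest adjusted p = 0.17, without the third WT library), and Pde7a, a cAMP phosphodiesterase, at 713, 602 and 543 in KO and 971, 992 and 1012 in WT (-0.69). Creatine and purine metabolism had 4 of 31 members higher and 2 lower (19.4% called). The creatine transporter Slc6a8 was at 3003, 3352 and 3849 in KO and 2409, 2564 and 2531 in WT (0.44, adjusted p = 0.0023), and Adk, adenosine kinase, at 2557, 2258 and 2366 in KO and 3229.7, 3169.5 and 3442 in WT (-0.46). Plasma membrane transporters had 3 of 34 higher and 2 lower (14.7% called). Slc43a2, a carrier of branched-chain and other neutral amino acids, was at 554, 614 and 588 in KO and 434, 401 and 391 in WT (0.52), and Slc7a1, the arginine transporter, at 869.8, 798 and 557 in KO and 1552, 1457 and 1898 in WT (-1.16). The integrated stress response list had 4 of 28 lower and none higher (14.3% called). The cell cycle list had 1 of 38 higher and 2 lower (7.89% called, near the 7.49% of all genes tested). In the interferon list limma called no member of 39, none had an unadjusted p under 0.05, and edgeR and DESeq2 called none.

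Marker lists of the cell types of the heart differed in how many members were called, against 7.49% of all genes tested. Of 20 cardiomyocyte markers 5 were higher and 2 lower (35% called), with a summed level of 3593405 to 3822071 in KO and 3540639 to 3688909 in WT. The 19 endothelial markers gave no limma call (4 had an unadjusted p under 0.05, and edgeR called none and DESeq2 1), with a summed level of 32591 to 33501 in KO and 34716 to 35948 in WT. Fibroblast markers had 4 of 19 higher, or 21.1% (summed 33159 to 37532 in KO and 34110 to 34597 in WT), and 15 myofibroblast markers gave none (4 at an unadjusted p under 0.05, none by edgeR or DESeq2, summed 4063 to 5839 in KO and 4035 to 4232 in WT). Of 20 macrophage markers 1 was called: Cx3cr1, a chemokine receptor of resident macrophages, at 90.2, 51.2 and 59.8 in KO and 25.1, 16.4 and 36.1 in WT (1.37, limma adjusted p = 0.0048). The macrophage list summed to 5484 to 5993 in KO and 4676 to 5255 in WT. Smooth muscle and pericyte markers had 1 of 15 higher (summed 47239 to 52184 in KO and 44334 to 45604 in WT). Of 13 atrial markers 12 had a log2 fold change below 0, with a median of -0.42, and 2 were called lower (15.4%): Kcna5, given above, and Dkk3, a secreted Wnt pathway protein, at 219.6, 269 and 246 in KO and 329, 362 and 375 in WT (-0.54, adjusted p = 0.0067). The atrial list summed to 7909.8 to 13433 in KO and 7922 to 9821 in WT, and the highest sum was that of the third KO library, which was also the highest for Nppa. The atrial light chain Myl7 was at 269.8, 382 and 261 in KO and 298, 512 and 478 in WT, and Bmp10, a growth factor of the right atrium, at 0, 0 and 1.42 in KO and 0, 143 and 11.0 in WT, where the second WT library stood apart. Neither was called, and the part of atrial tissue in the gene changes was not tested. Nerve and Schwann cell markers had 2 of 11 lower (18.2%), namely Ncam1, an adhesion molecule, at 78.3, 85.7 and 88.3 in KO and 111, 164 and 151 in WT (-0.73), and Cdh19, a cadherin of Schwann cell precursors, at 112, 111 and 144 in KO and 215, 253 and 213 in WT (-0.89). Whether the cell makeup plays a part in the gene changes was not tested. The alveolar marker Sftpc and the globins Hba-a1, Hba-a2, Hbb-b1 and Hbb-b2 are listed at 0 in all 6 libraries. Eno1 is listed at 0 as well and Gapdh at 16.4 or less, both genes that every cell uses and that have near-identical copies, so a 0 for the globins is not informative.

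The same contrast at 4w shares no library with that at 20w, but both use the spread per gene of the same fit. Their calls are therefore not independent. The 4w contrast called 736 genes (5.65% of those tested). Of these, 305 were also called at 20w, which is 31.3% of the 20w calls and 41.4% of the 4w calls. The direction was the same for 304 of the 305, of which 231 were lower and 73 higher at both ages, and Met was the exception. Among the 558 genes lower at 20w, 41.4% were also called lower at 4w, and among the 418 higher at 20w, 17.5% were called higher. At 4w the estimate had the same sign for 90.9% of the lower genes and 81.6% of the higher ones, against 60.3% of all genes tested. Klf15 had a log2 fold change of -4.67 at 4w, and Adhfe1 had -6.33, Gstk1 -3.02, Aldh6a1 -1.72 and Echs1 -0.86. Several stress genes were not called at 4w: Nppb had 0.68 (adjusted p = 0.29, limma), Ankrd1 0.24 and Ankrd23 -0.0083. Myh7 was called at 4w too (2.45, adjusted p = 0.038).

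**Figure D4:**
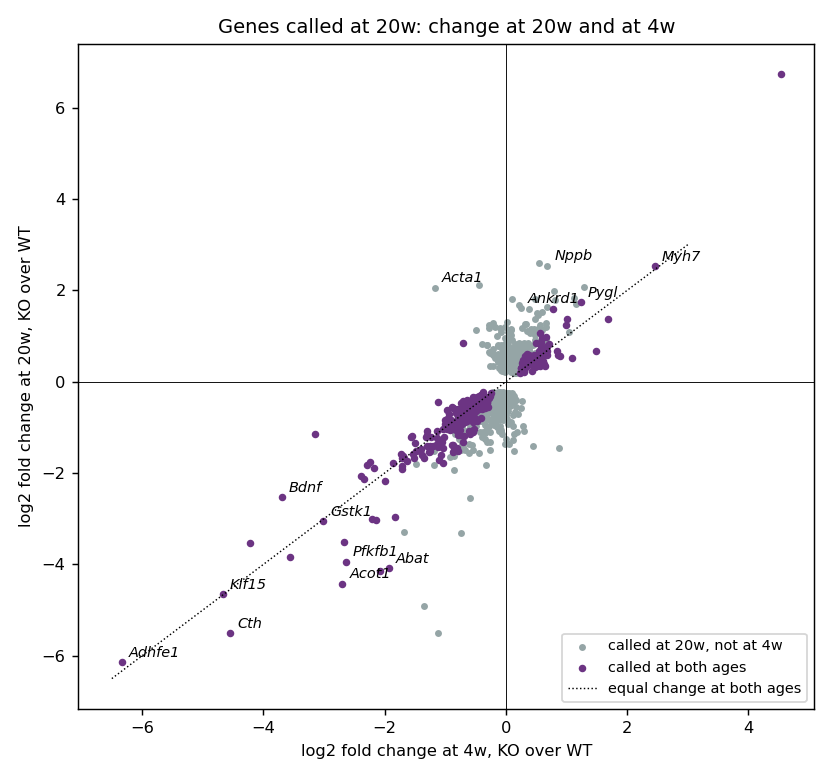
Log2 fold change (KO over WT) at 20w against that at 4w for the 976 genes called at 20w, with genes called at both ages in purple and the line of equal change dotted. Most lower genes lie below 0 at both ages, while Nppb, Ankrd1 and Acta1 lie well above the line. The unlabelled point at the upper right is Rprl3.

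The difference itself between the 2 ages was tested as an interaction, which called 25 genes (0.192% of those tested), 2 higher and 23 lower at 20w relative to 4w. Under the other settings the count ran between 3 and 157, and at a common total 10 of 12 calls were higher. Abat was called under all 18 of them: its values at 4w were 39.6, 46.7 and 42.5 in KO and 139, 182 and 181 in WT, and the effect at 20w minus that at 4w was -2.16 ± 0.21 SE on the log2 scale (limma adjusted p = 2.3e-05). The WT level was higher at 20w than at 4w, while KO libraries stayed low at both ages. Met, the hepatocyte growth factor receptor, was at 36.2, 42.6 and 54.0 in KO and 108, 57.2 and 61.5 in WT at 4w, and at 70.6, 69.0 and 98.3 in KO and 40.7, 42.8 and 45.5 in WT at 20w, a difference of 1.57 (adjusted p = 0.039). The 20w call of Met was lost in 2 of the 6 single-library omissions (highest adjusted p = 0.097, without the third KO library). Lmod3 differed by 0.49 (adjusted p = 0.045). Kmt2d, a histone methyltransferase, was not called at 20w (-0.18) but higher in KO at 4w, at 3174, 2659.8 and 2231 in KO and 1438, 1369 and 1516 in WT, and the RNA-binding protein gene Pcbp2 (-0.96) and the translation initiation gene Eif1 (-0.99) had the same pattern. For these 3 genes the 4w KO libraries were all above the 4w WT libraries. The second 4w KO library had 30.8% of its reads on Rn45s, and without the libraries over 1.5% the interaction called 5 genes, none of these 3 among them. The calls of these 3 genes held under 8 to 16 of the 18 settings, and those of Met and Lmod3 under 8 each, with the sign kept in all. For Nppb the difference was 1.86 ± 0.47 SE and for Acta1 3.23 ± 0.76 SE, and neither passed the adjustment (adjusted p = 0.1 and 0.078).

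At P10 the contrast, from the same fit, called 295 genes (2.26% of those tested). Of these, 100 were also called at 20w, which is 10.2% of the 20w calls and 33.9% of the P10 calls. The direction was the same for 84 of them and opposite for 16, among them Nmrk2, Cryab, Xirp2 and Plin4. The interaction between 20w and P10, which uses the same 20w libraries as the one with 4w, called 488 genes (3.74%), of which 251 were higher and 237 lower at 20w relative to P10. Every P10 library held both Xist (4814 to 6612 in KO and 5229 to 11077 in WT) and Ddx3y (525 to 1198 in KO and 633.6 to 1112 in WT), whereas Xist was at 9.4 or less at 4w and 20w. Age therefore cannot be told apart from the sex of the animals in this comparison.

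Acot1 had the largest negative difference, -4.29 ± 0.45 SE (limma adjusted p = 2e-05). At P10 it was at 139, 241 and 169 in KO and 198, 206 and 186 in WT, where the groups overlap, and its estimates at P10, 4w and 20w were -0.14, -2.70 and -4.42. Abat (-3.52), Gstm2 (-3.37), Pfkfb1 (-3.02) and Fah (-2.91) followed the same order of ages. For Klf15 itself the difference was -1.95 (adjusted p = 0.0007): KO libraries were at 25.4, 17.4 and 24.7 at P10, against 139.7, 164 and 145 in WT, so the WT level was lower at that age. On the positive side, Acta1 differed by 3.43 (adjusted p = 0.014), Nmrk2 by 3.43 (adjusted p = 0.0015), Nppb by 3.18 (adjusted p = 0.00083) and Ankrd1 by 2.27 (adjusted p = 0.0016). In these 4 genes the second P10 WT library was the highest of the 3, for Acta1 at 575, 412 and 469 in KO and 525, 3789 and 989 in WT. Shisa3 was at 20.7, 28.3 and 39.2 in KO and 59.1, 87.9 and 41.4 in WT at P10, where the estimate was -1.05 (adjusted p = 0.091), and the difference from 20w was 2.17 ± 0.44 SE (adjusted p = 0.0083). The interaction calls of all 11 genes named in this comparison, Klf15 and Shisa3 among them, held under all 18 settings. None of these settings left out a P10 library, so they cannot show how far the calls rest on the second P10 WT library.

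**Figure D5:**
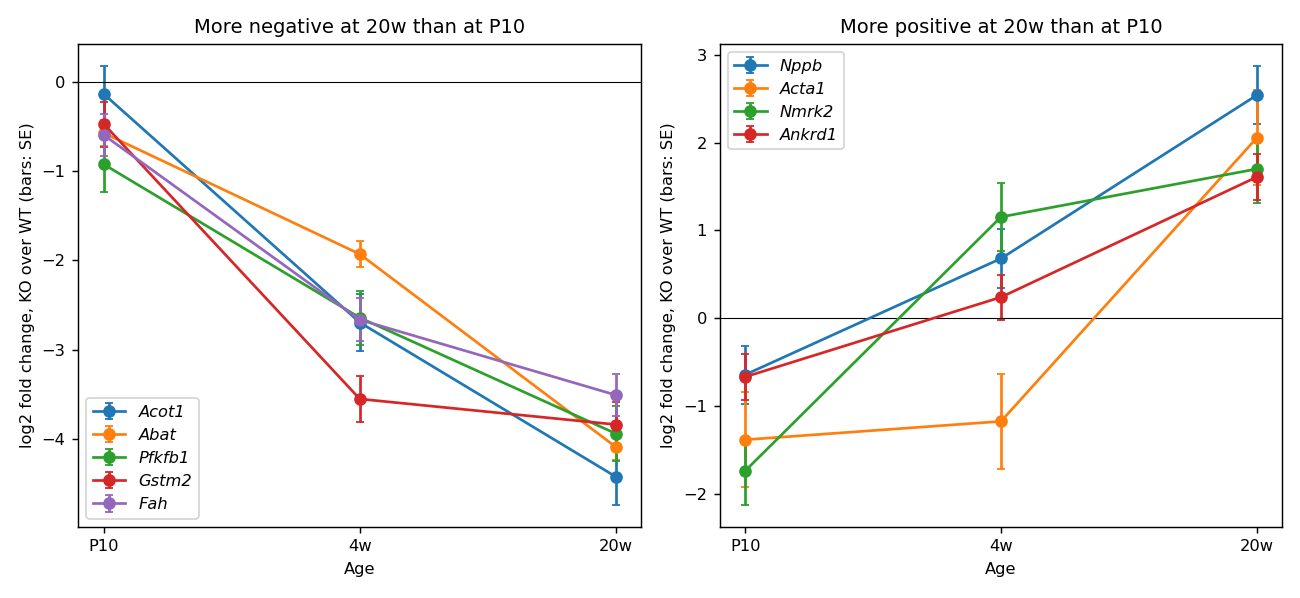
Log2 fold change (KO over WT, bars give the SE) at P10, 4w and 20w for the 5 genes with the most negative difference between 20w and P10 and 4 of those with the most positive. The left panel shows losses that are deepest at 20w, led by Acot1, and the right panel shows genes below 0 at P10 and above 0 at 20w.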

How the data were processed

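Libraries were made from total RNA of ventricles, 3 per group in 6 groups. The deposited table holds normalised counts (signal: gene counts divided by DESeq2 size factors by the authors). Per the submitters' processing notes, Bowtie2 (version 2.0), DESeq2 and the mouse build mm9 were used; annotation, counting rule and strand setting are not stated. Dividing each library by its smallest step gave whole reads for 100% of values (within 0.001 reads), and these reads served the count models. Of 24391 entries, 27 are spreadsheet dates (at most 0.204% of reads).

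Genes averaging at least 10 over 18 libraries were tested with limma 3.58.1 (R 4.3.3) on log2(value + 1), with 6 group means, empirical Bayes with a mean trend and Benjamini-Hochberg adjustment (two-sided, called under 0.05). Differences between ages were interaction contrasts of that fit, and both share the 20w libraries. Alternatives were edgeR 4.0.16 (quasi-likelihood) and DESeq2 1.42.0 on recovered reads, other pseudocounts (0.5 and 5), filters and scalings, quality weights, single-library omissions and a replicate block. The code was tested on simulated data. Tables and plots used Python 3.11.15, pandas 2.3.3 and matplotlib 3.10.9.

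The comparison and the gene lists were chosen with earlier results of these data known, from textbook knowledge. Named are Klf15 and Shisa3; the 12 highest and 12 lowest called genes averaging at least 50 with groups that do not overlap; the 8 most abundant called genes per direction; up to 5 called and 3 other members per list; and the 5 highest and 5 lowest per interaction. Genes outside this rule (Egr1, Nr4a1, Thbs1, Postn, Ucp3, Gsto1, Scn4b, Wnt5b, Fzd4, Sfrp5, Flnc, Fhl1, Hspd1, Plin4, Rprl3, Xist, Ddx3y, Eno1, Gapdh and the other observations at the close) were chosen after their values were seen. Promoter windows are RefSeq sequences of GRCm38.p6. Some genes that the rule names are not reported here. Whether replicate numbers pair KO with WT libraries is not given, and the main fit did not pair them.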

Additional observations from a re-analysis of the deposited data

Results flagged for a closer look

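Several genes had a KO effect at 20w that differed from the effect at another age by the interaction test (limma, adjusted p under 0.05). Each value is the log2 fold change at 20w minus that at the other age.

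Against 4w, the effect on Abat was more negative at 20w by -2.16, and that on Kmt2d by -1.07, Eif1 by -0.986 and Pcbp2 by -0.96. The effect on Met was more positive at 20w by 1.57 and that on Lmod3 by 0.491. Abat passed under all 18 other settings, Pcbp2 under 16, Kmt2d under 9, and Eif1, Met and Lmod3 under 8.

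Against P10, enzyme genes were more negative at 20w: Acot1 by -4.29, Abat by -3.52, Gstm2 by -3.37, Pfkfb1 by -3.02 and Fah by -2.91, with Klf15 itself at -1.95. Stress and related genes were more positive at 20w: Acta1 by 3.43, Nmrk2 by 3.43, Nppb by 3.18, Ankrd1 by 2.27 and Shisa3 by 2.17. The P10 libraries hold RNA of both Xist and Ddx3y and the 20w libraries hold almost no Xist, so age and sex cannot be told apart here. The second P10 WT library had the highest level of Acta1, Nmrk2, Nppb, Ankrd1 and Shisa3 in its group, and its part in these differences was not tested.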

How the results depend on the processing

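Between 20w KO and 20w WT, 976 genes were called, and 851 to 1032 under other pseudocounts, filters, TMM, quality weights and DESeq2, with 842 by edgeR and 664 in a fit of the 6 libraries of 20w alone. At a common total the count was 408, and 473 without the libraries over 1.5% Rn45s. Leaving out single 20w libraries gave 581 (without KO library 3) to 1165 (without KO library 1), with 616 without WT library 2 and 583 without WT library 3. The interaction with 4w (25 genes) gave 7 without a filter, 15 by edgeR, 157 by DESeq2, 12 at a common total, 90 with quality weights, 64 with libraries of both ages only and 5 without the libraries over 1.5% Rn45s. Single-library omissions gave 3 to 113. The interaction with P10 (488 genes) gave 161 at a common total, 1004 with quality weights and 298 without those libraries, and single-library omissions gave 302 to 594. Deviations of same-numbered KO and WT libraries from their group means had r = -0.112, -0.02 and -0.007 at 20w. In every group, however, the second library had the highest Rn45s share (1.70% in 20w KO and 2.72% in 20w WT). Whether libraries of the same number were handled together is not given and was not tested. With a replicate block, 679 genes were called at 20w, 3 in the interaction with 4w and 275 in that with P10. The cause of these shifts was not tested. Of 343 genes examined by name, 187 were called, 87 of them under every one of the 18 alternatives that gave them a value, and none reversed. Of the 976 genes, 388 held in each single-library omission and 259 under every setting, 68 higher and 191 lower. Depth was 9504538 to 17733942 reads at 20w, deeper in KO, which limits genes near the lower bound of 10.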

Other observations

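The values below concern genes outside the rule for named genes and were chosen after their values were seen.

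At 20w Grin2c, an NMDA receptor subunit, was at 44.3, 63.7 and 35.6 in KO and 7.83, 9.87 and 14.1 normalised reads in WT (log2 fold change 2.07). These values rest on 138 reads in KO and 20 in WT. Its mean over the 18 libraries was 13.7, with 47.9 in 20w KO and 2.61 to 13.5 in the other groups. It passed the limit of 10 through the 20w KO libraries, where it is high, so its test is not given as support.

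Ifi202b, an interferon-inducible gene whose level is known to differ between mouse strains, had no read in any 20w KO library and 23.5, 44.4 and 83.1 in the WT libraries, at least 47.5-fold lower in KO with a floor of 3 reads over the group. It was at 0 in all P10 KO libraries as well, but at 0, 16.2 and 23.6 in KO and 0, 46.5 and 89.3 in WT at 4w, where it was at 0 in the first library of each group. Rprl3 was at 271, 1226 and 262 in KO and 3.13, 3.29 and 3.14 in WT at 20w and at 978, 347 and 1344 in KO and 6.66, 465 and 9.28 in WT at 4w, with near-identical copies in the genome. Matn4, a matrix protein, was at 3.40, 5.22 and 7.12 in KO and at 0 in all WT libraries at 20w, and at 23.8, 23.5 and 22.1 in KO and 20.6, 17.4 and 22.7 in WT at P10. Its values at 20w rest on 14 reads in KO and 0 in WT, where the WT libraries were less deep. Kbtbd12, which lies within 10 Mb of Klf15, was at 1075, 959 and 863 in KO and 487, 502 and 507 in WT (0.95), and higher in every KO library than in every WT library at P10, 4w and 20w.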
